A study of Drosophila melanogaster with 34 samples.

Results

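In the chromatin of the mushroom body (MB), the memory centre of the *Drosophila* brain, the histone deacetylase Rpd3 shared 1159 sites with the acetyltransferase CBP at places where no site of CoRest-C was listed. They made up 42.7% of the 2717 different Rpd3 sites, beside 664 sites shared with both partners, 811 with neither and 83 with CoRest-C alone. A site belonged to this group when its Rpd3 peak shared at least 1 bp with a CBP peak and no base pair with any CoRest-C peak. The group was thus chosen by the positions of called peaks, and overlap with CBP and absence of CoRest-C are not findings about it. Over the 3 lists the series held 10638 sites.

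Rpd3 is the fly homologue of the mammalian HDAC1 and HDAC2 and removes acetyl groups from histones, mostly as a subunit of the Sin3, NuRD and CoREST complexes. CBP (Nejire in the fly) writes acetyl marks on histones at promoters and enhancers and is a coactivator of many signal-dependent factors, among them CREB. CoRest is the scaffold of the CoREST complex, and CoRest-C is a form of it shortened at the N terminus. Deacetylases and acetyltransferases are often found together at promoters of active genes, where acetylation turns over.

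Chromatin and nuclear RNA came from MB nuclei of flies with the strain label CS10 (the control line w(CS10) of the study), pulled out of homogenised heads through FLAG-KASH, a nuclear-envelope tag that was expressed under MBp-LexA together with CsChrimson, a red light-gated cation channel. Flies were fed all-trans-retinal, which the channel needs, and heads of many flies were pooled for a sample. A myc-tagged copy of CoRest-C was expressed in the MB under MBsw, an MB driver induced by feeding RU486. The study lists this copy for the flies of the ChIP-seq without limiting it to the samples precipitated through myc. The CBP and Rpd3 sites may thus come from flies with added CoRest-C too. CoRest-C sites are those of the added protein, whereas CBP and Rpd3 were precipitated with antibodies to the proteins themselves. The site lists were made from flies after 5 min of pulsed red light, and binding in naïve flies was not analysed here. RNA was read in 15 libraries, 3 each from naïve flies, from flies at the end of 5 min of light (5 min light), and from flies left for 5, 10 or 15 min afterwards (5, 10 and 15 min rest). Illuminated flies without the channel were not analysed here, and effects of the light and of MB activation cannot be told apart. The age and sex of the flies were not given in the sources used here.

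The RNA libraries held 10392334 to 18809246 reads in genes, with a common biological coefficient of variation of 13.4%. Naïve replicate 2 stood apart from the other naïve libraries (chi-square per degree of freedom over genes 32.3 and 28.5, against 6.17 between replicates 1 and 3). Summed photoreceptor markers reached 28389 to 29272 CPM (reads of a gene scaled to a common library size) at 10 min rest and 29794 to 34413 CPM in naïve flies, but 42401 to 50686 CPM at 15 min rest. Of these 14 markers, 9 were called higher at 15 min rest, against 5.41% of all genes tested. At 10 min rest 7 were called lower and 0 higher, against 13.9% and 14.5% of all genes. At 5 min rest 6 were lower and 0 higher, against 6.02% and 8.75%. Summed fat body markers were also highest at 15 min rest (21652 to 22926 CPM, against 14913 to 14982 CPM in naïve flies). Summed over 12 genes, MB neuron markers stood at 3114 to 3355 CPM at 10 min rest and 3244 to 3557 CPM in naïve flies, and none of them was at 0. In a bulk sample, fewer cells of a type and less RNA per cell cannot be told apart, and the part of other cells in the results was not tested.

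Sequences around transcription start sites inside these sites are shown in 2 sets, chosen after their motifs were seen to illustrate them, and not to show how common they are. The first set holds starts under strong CBP peaks (fold enrichment 23.7 to 70.1), most of them with GAGA letters. Each run holds 80 bases before the start site and 40 from it on, read 5′ to 3′ on the strand of the gene from the RefSeq sequence of the Release 6 genome (dm6), with start sites of the Ensembl annotation. Capitals mark letters of the motifs searched on both strands. Runs of GAGAG or CTCTC are the letters bound by GAGA factor, TCAGT is the core of the initiator, and TATAAA is the TATA box. The run of *osa* is a counter-example, with the element TATCGATA described with the second set and no GAGA letters under a CBP enrichment of 39.9. Starts of *Hsc70Cb* (TATCGATA, CBP 25.4) and *msn* (GGTCACACT, CBP 27.0) also held letters of that set.
*CG42388*, chrX:9042564-9042683, plus strand: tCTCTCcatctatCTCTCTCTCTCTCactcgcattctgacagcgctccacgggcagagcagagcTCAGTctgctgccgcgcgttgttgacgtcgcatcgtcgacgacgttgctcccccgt
*Ugt86Da*, chr3R:11157018-11157137, plus strand: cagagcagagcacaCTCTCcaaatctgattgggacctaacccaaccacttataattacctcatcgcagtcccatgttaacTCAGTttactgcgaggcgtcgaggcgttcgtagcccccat
*fz*, chr3L:14274263-14274382, plus strand: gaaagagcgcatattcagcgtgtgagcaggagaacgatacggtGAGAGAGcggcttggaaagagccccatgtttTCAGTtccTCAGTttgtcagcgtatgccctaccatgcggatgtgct
*mthl5*, chr3R:11887129-11887248, minus strand: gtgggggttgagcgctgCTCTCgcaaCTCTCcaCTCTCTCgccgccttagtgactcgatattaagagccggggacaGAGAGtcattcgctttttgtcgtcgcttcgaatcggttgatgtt
*stv*, chr3L:13477461-13477580, plus strand: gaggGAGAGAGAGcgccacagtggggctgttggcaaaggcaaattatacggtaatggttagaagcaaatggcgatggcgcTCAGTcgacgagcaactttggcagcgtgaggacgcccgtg
*Hsp70Ab*, chr3R:11958455-11958574, plus strand: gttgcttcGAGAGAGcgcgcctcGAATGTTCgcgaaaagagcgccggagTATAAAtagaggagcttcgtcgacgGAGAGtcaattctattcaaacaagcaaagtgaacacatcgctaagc
*osa*, chr3R:17718311-17718430, minus strand: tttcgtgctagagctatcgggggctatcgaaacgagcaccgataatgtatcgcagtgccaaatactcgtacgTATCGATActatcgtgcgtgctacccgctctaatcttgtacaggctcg

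The second set shows starts in sites with weaker CBP peaks (fold enrichment 2.82 to 9.46). Here the capitals mark mostly TATCGATA, the DNA replication-related element (DRE) bound by DREF, and GGTCACACT, the core of Motif 1, both typical of housekeeping promoters of the fly. The runs of *Rpd3* and *Hmu* belong to sites with some of the highest Rpd3 enrichments, those of *tra* and *Hop* to genes with RNA that rose after light, and those of *CG3862* and *mRpL17* to genes with RNA that fell. The run of *CG3862* carries the DRE letters at 2 places, and that of *mRpL17* is shown as the member of a mitochondrial ribosomal protein list. Most sites with weaker CBP held neither DRE nor Motif 1 letters, and GAGA letters were found at weak sites too, as in the run of *CG4360* (CBP 4.06) and at starts of *RpL4* (4.73) and *RpL35* (3.52).
*Rpd3*, chr3L:4626654-4626773, plus strand: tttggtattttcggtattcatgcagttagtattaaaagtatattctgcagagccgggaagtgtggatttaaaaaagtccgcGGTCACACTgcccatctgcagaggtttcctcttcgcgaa
*Hmu*, chr3R:27288689-27288808, plus strand: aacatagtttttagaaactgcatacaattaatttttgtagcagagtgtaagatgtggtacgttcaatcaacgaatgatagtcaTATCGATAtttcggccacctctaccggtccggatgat
*tra*, chr3L:16591011-16591130, minus strand: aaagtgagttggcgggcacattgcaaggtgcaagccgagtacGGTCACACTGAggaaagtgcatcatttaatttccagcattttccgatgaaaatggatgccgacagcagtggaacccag
*Hop*, chr2L:295042-295161, plus strand: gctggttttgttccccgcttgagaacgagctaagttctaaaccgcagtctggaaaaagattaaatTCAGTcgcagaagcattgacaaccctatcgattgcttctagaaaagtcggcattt
*CG3862*, chr2L:825822-825941, minus strand: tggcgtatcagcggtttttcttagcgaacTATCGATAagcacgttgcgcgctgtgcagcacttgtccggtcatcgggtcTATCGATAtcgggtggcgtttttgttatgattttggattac
*mRpL17*, chr3L:264699-264818, plus strand: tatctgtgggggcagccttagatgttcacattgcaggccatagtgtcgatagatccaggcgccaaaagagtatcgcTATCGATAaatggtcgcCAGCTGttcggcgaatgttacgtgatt
*CG4360*, chr3R:20327964-20328083, minus strand: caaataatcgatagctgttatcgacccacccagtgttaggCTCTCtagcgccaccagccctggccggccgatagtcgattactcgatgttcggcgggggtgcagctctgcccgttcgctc

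The sites were peaks of moderate height with a small number of strong ones. Rpd3 fold enrichment over input had a median of 4.07 (3.00 to 14.9), against 4.40 at sites with both partners and 3.91 at sites with neither. The peaks were 252 to 3797 bp wide, with a median of 903 bp, against 1038 bp with both partners and 686 bp with neither. The highest Rpd3 enrichment of all lay on the *Rpd3* gene itself (named *HDAC1* in the annotation), at chr3L:4626638-4627562 over the starts of *Rpd3* and of the non-coding RNA *CR45438*. There the fold enrichment was 14.9 and the peak caller's −log10 p was 191, whereas the CBP peak below it reached a fold enrichment of only 2.82. Next came sites at *CG4360* (10.1), at *CG5789*, named *Cftr* in the annotation (8.80), at *l(1)G0320* (8.20) and between *Hmu*, which encodes hemomucin, and *bigmax*, which encodes a basic helix-loop-helix factor (7.63). The site at *snRNA:U1:95Ca*, a gene of the U1 small nuclear RNA of the spliceosome, followed with 7.57. All values of a site list are single values from the authors' peak calls, without a replicate spread, and differences between groups of sites were not tested.

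CBP enrichment under the same peaks spread far more widely than that of Rpd3 and had 2 humps. Its median was 6.99 and its range 2.21 to 70.1, with one hump of values near 4 and another near 25. At 479 sites (41.3%) it reached at least 10, against 50.5% at sites with both partners and 37.0% of all 6684 CBP sites. The split at 10 used below was chosen after these values were seen. Rpd3 enrichment did not follow: its median was 4.07 where CBP was under 3, 4.17 from 3 to 5, 4.09 from 10 to 20 and 3.97 from 40 upwards. The highest CBP peaks stood over a start of *CG42388*, named *Nost* in the annotation (70.1), over *Ugt86Da*, which encodes a UDP-glycosyltransferase (61.2), and over *fz*, which encodes the Wnt and planar polarity receptor Frizzled (59.8). *Pde8*, which encodes a cyclic nucleotide phosphodiesterase, and *mthl5*, which encodes a G protein-coupled receptor of the Methuselah family, followed with 53.6 and 48.3. At these 5 sites Rpd3 enrichment was 3.59 to 4.29, close to the median of the group.

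**Figure D1:**
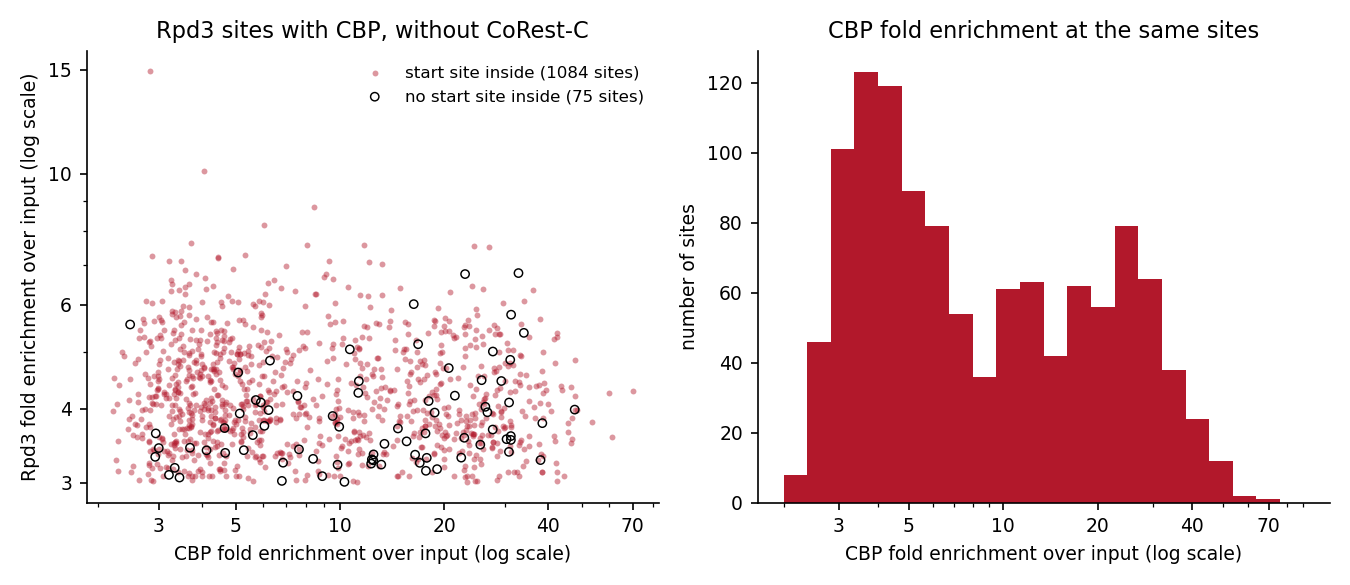
Fold enrichment of Rpd3 (vertical axis, log scale) against that of CBP (horizontal axis, log scale) for the 1159 sites. Of the points, 1084 hold a transcription start site and 75 do not. A histogram gives the number of sites by CBP fold enrichment. The CBP values form 2 humps near 4 and near 25, and the highest point, at an Rpd3 enrichment of 14.9, is the site on *Rpd3*.

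CBP peaks covered a median of 78.5% of the length of a site. They covered all of it at 295 sites and under 25% of it at 42. In all, 1182 CBP sites (17.7% of the CBP list) took part, with 35 Rpd3 sites touching 2 of them. Sites just inside the rule were those at *FucT6*, with only 29 bp shared with CBP, and *CG7139*, with 56 bp, whereas a site at *lid*, which encodes a histone demethylase, lay 102 bp from CBP and stayed outside. On the other side, a site at *CG14997* lay 29 bp from CoRest-C and stayed in, and sites at *kek5* (16 bp shared) and *SH3PX1* (72 bp shared) were left out. Only 20 of the 1159 sites lay within 500 bp of a CoRest-C site and 43 within 1 kb, with a median gap of 21682 bp.

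Nearly all sites sat on promoters. A start site of an annotated transcript lay inside 1084 of them (93.5%), against 91.7% of sites with both partners, 90.8% of sites with neither and 97.6% of sites with CoRest-C alone. Protein-coding starts lay in 1077 sites, starts of non-coding RNAs in 49, of small nucleolar RNAs in 6 and of small nuclear RNAs in 3. Of the 75 sites without a start, 40 had their midpoint in an intron, 18 between genes, 9 in a non-coding exon and 8 in a coding exon. These 75 lay a median of 1549 bp and at most 21173 bp from the nearest start. CBP enrichment was at least 10 at 26 of the 45 that lay over 1 kb away. The X chromosome held 22.5% of the group, against 17.2% of sites with both partners, 20.3% with neither and 19.2% of the CBP list.

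Sites that held protein-coding starts on both strands grew fewer as CBP grew. Whether such starts pointed away from each other was not checked. Protein-coding starts on both strands lay in 292 sites (25.2%), namely in 11.7% of those with a CBP enrichment of at least 10 and in 34.7% of the weaker ones. Taken in steps, the share was 42.9% of 84 sites under 3, 38.8% of 338 from 3 to 5, 26.7% of 258 from 5 to 10, 16.1% of 224 from 10 to 20, 7.49% of 227 from 20 to 40 and 10.7% of the 28 above. The median width of the sites also fell, from 1029.5 bp under 3 to 772 bp from 20 to 40, and was 1053 bp above. Wider sites have more room for starts, and the part of width was not tested.

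The position of the CBP summit relative to the start also differed between strong and weak CBP peaks, whereas Rpd3 lay downstream at both. Orientation was possible at 749 sites with starts on a single strand and a single CBP peak. Distances were taken from the start farthest upstream in the site. Where a site held several starts, this choice placed both summits farther downstream. The CBP summit lay a median of 60 bp and the Rpd3 summit 89 bp downstream of that start. With a CBP enrichment of at least 10 (355 sites), the median CBP summit lay 14 bp upstream (−14 bp), and 52.4% of summits were upstream. These CBP summits scattered widely both ways, with quartiles of −100 and 425 bp. The Rpd3 summit lay a median of 61 bp downstream. With weaker CBP (394 sites) the medians were 92.5 bp for CBP and 125.5 bp for Rpd3, and CBP was upstream at 15.2%. The quartiles for CBP there were 29 and 234 bp. The summits lay within 150 bp of each other at 59.3% of the 749 sites, namely at 45.9% with strong CBP and 71.3% with weaker CBP.

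The letters of promoter motifs followed the same split. In windows of 300 bp centred on the sites, GAGAG was present in 43.7% of the 1159, against 47.6% of windows with both partners, 23.2% of windows with neither, 33.5% of windows at protein-coding starts and 30.2% of 445433 windows tiling the chromosome arms. Under strong CBP peaks the share was 61.6%, and under weaker ones 31.2%. The housekeeping motifs ran the other way. DRE letters were in 1.67% of windows with strong CBP and 6.76% with weaker CBP, against 7.15% at sites with neither and 7.08% at protein-coding starts. The Motif 1 core was in 1.67% and 5.15%, against 6.04% at sites with neither and 4.84% at coding starts.

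The initiator letters TCAGT were in 44.1% of the windows, against 53.0% at coding starts, and the TATA box TATAAA in 22.4%, against 36.9%. Windows at coding starts were centred on the start itself. Those of the sites were centred on the site midpoint, a median of 145 bp from a start. Lower shares at the sites therefore do not show that their promoters lack these letters. The same limit holds for the other motifs set against coding starts. CAGCTG, the core of the motif known as Ohler 5, was in 15.2% of windows with strong CBP and 19.3% with weaker CBP, against 24.3% at sites with neither. The remaining motifs were sparse. TGACGTCA, the cAMP response element of CREB, was in 0.43% of the 1159 windows and 0.41% of the genome windows, and TGANTCA, the AP-1 site, in 4.66% and 5.86%. Paired heat shock element letters (GAANNTTC) were in 7.16% of the windows, against 9.53% at coding starts. G and C made up 46.1% of the bases of the windows, 42.2% of those of the genome windows and 42.0% of those at coding starts. A match is only a match of letters, and overlapping motifs were each counted.

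**Figure D2:**
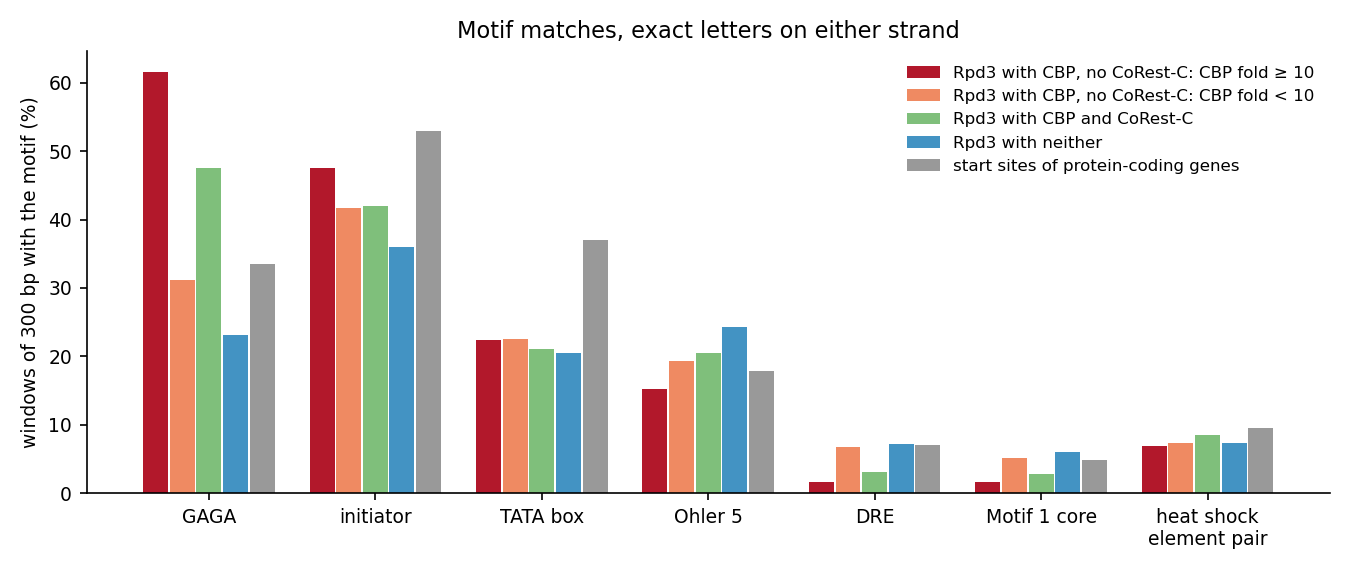
Percentage of 300 bp windows that hold each motif shown on either strand (vertical axis). Bars are for sites with CBP enrichment of at least 10, sites with weaker CBP, Rpd3 sites with both partners, Rpd3 sites with neither and starts of protein-coding genes. The bar for GAGA is highest with strong CBP (61.6%), whereas the DRE and Motif 1 bars are lowest there (1.67% each) among the windows at Rpd3 sites and starts.

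At the RNA level, the comparison with naïve flies asked whether genes starting in these sites changed after MB activation. A start inside a site was found for 1468 genes, among them 1394 protein-coding genes (10.0% of all). Of these, 1421 were in the count table, 28 had no read, and 1365 had counts enough to be tested. Genes were called at an adjusted p under 0.05 (edgeR's quasi-likelihood test with Benjamini-Hochberg adjustment over 11670 genes). In naïve flies the genes had a median of 21.7 CPM per kb of exon, against 21.8 with both partners, 16.9 with neither and 12.0 over all tested genes. Reads came mostly from 3′ regions, so that this measure is low for long transcripts. All 4 comparisons share the naïve libraries and are not independent of each other.

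At each time the share of genes called higher was above that of all genes tested, and the share called lower was below it. Differences between groups of genes were not themselves tested. At 5 min light, 96 were higher and 24 lower (7.03% and 1.76%, against 4.88% and 3.45% of all genes tested). At 5 min rest 177 were higher and 39 lower (12.97% and 2.86%, against 8.75% and 6.02%). The numbers were largest at 10 min rest, with 352 higher and 128 lower (25.8% and 9.38%, against 14.5% and 13.9%). At 15 min rest 117 were higher and 39 lower (8.57% and 2.86%, against 5.41% and 4.24%). Most changes were small. At 10 min rest the called genes had medians of 0.46 for those higher and −0.44 for those lower on the log2 scale, and 21 genes were more than 2-fold higher and 3 more than 2-fold lower. Over all 1365 genes the median log2 fold change was 0.05, against −0.05 over all genes. All 10 min rest libraries lay above all naïve libraries for 453 genes (33.2%, against 20.6% of all genes) and below them for 200 (14.7%, against 21.0%).

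The balance of calls at 10 min rest depended on how the libraries were scaled. With library size alone, 227 genes were higher and 271 lower, so that 45.6% of the calls were higher, in place of 73.3% with TMM scaling. With upper-quartile scaling 61.0% were higher (288 against 184). Library size alone moved the median of all genes by −0.12 relative to TMM. Of the genes at these sites 16.6% were then called higher, against 10.6% of all genes, and 19.9% lower, against 24.4%. Relative to the median of all genes, the median of the genes at these sites was higher by 0.10 on the log2 scale under each of the 3 scalings. At 10 min rest the number lower fell to 68 without 10 min rest replicate 1 and to 76 without replicate 2. Without naïve replicate 2, 303 genes were higher and 96 lower. At 5 min light 54 were higher and 12 lower without 5 min light replicate 3, and 37 lower without naïve replicate 2. At 5 min rest 105 were higher and 20 lower without 5 min rest replicate 3, and 24 lower without replicate 2.

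**Figure D3:**
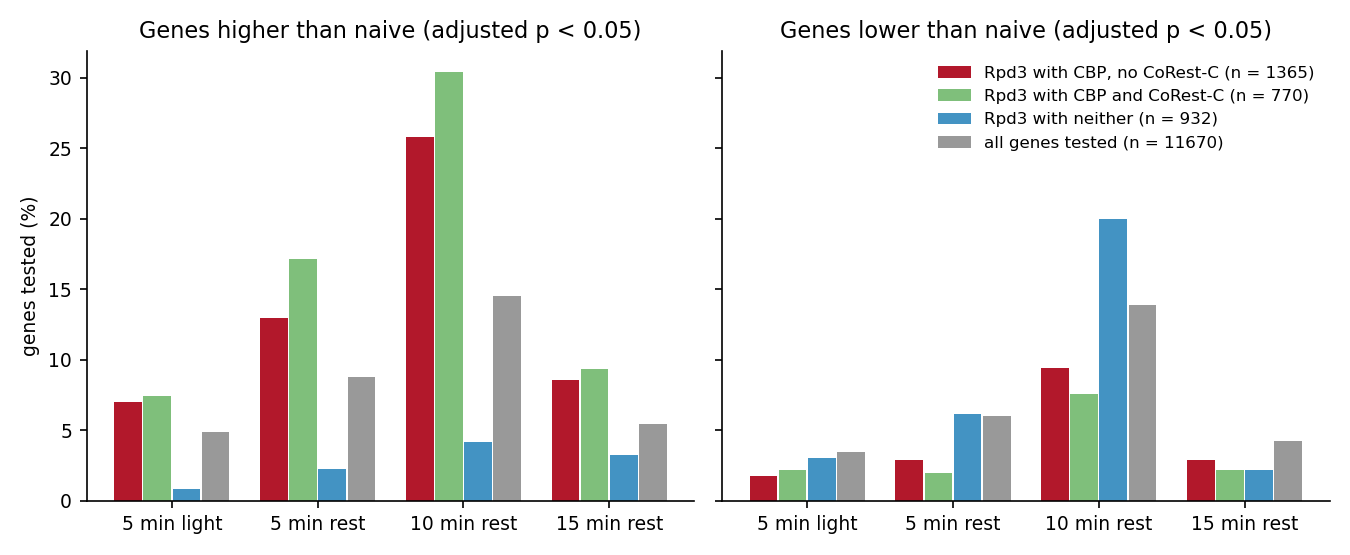
Percentage of tested genes called higher and lower than in naïve flies (vertical axis) at the end of light and after 5, 10 and 15 min of rest, for 1365 genes at sites with CBP but no CoRest-C, 770 at sites with both, 932 at sites with neither and all 11670 genes. The bars for genes higher are tallest at 10 min rest, with 25.8% at the sites described, 30.4% with both, 4.18% with neither and 14.5% over all genes.

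The share of genes that rose was larger where CBP was stronger. At 10 min rest, 196 of 481 genes at sites with a CBP enrichment of at least 10 were higher and 21 lower (40.7% and 4.37%), with a median log2 fold change of 0.20. Of 884 genes at the weaker sites, 156 were higher and 107 lower (17.6% and 12.1%), with a median of −0.02, so that their share of higher calls was near the 14.5% of all genes. Taken in steps, the share higher was 13.6% of 110 genes under 3, 16.3% of 465 from 3 to 5, 21.0% of 309 from 5 to 10, 36.3% of 237 from 10 to 20, 43.9% of 214 from 20 to 40 and 53.3% of the 30 above. By Rpd3 enrichment no such rise was seen, with 29.0% of genes higher from 3 to 4, 24.0% from 4 to 5 and 22.4% from 5 upwards.

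Other groups of sites with CBP gave similar shares, and sites without CBP gave low ones. At 10 min rest 234 of 770 genes at sites with both partners were higher and 58 lower (30.4% and 7.53%). At CBP sites without Rpd3, 465 of 1900 genes were higher and 202 lower (24.5% and 10.6%). At Rpd3 sites with neither partner, 39 of 932 were higher and 186 lower (4.18% and 19.96%). Among the genes at the sites described, 29.9% of those with GAGAG letters in the window and 23.5% of those without were higher.

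**Figure D4:**
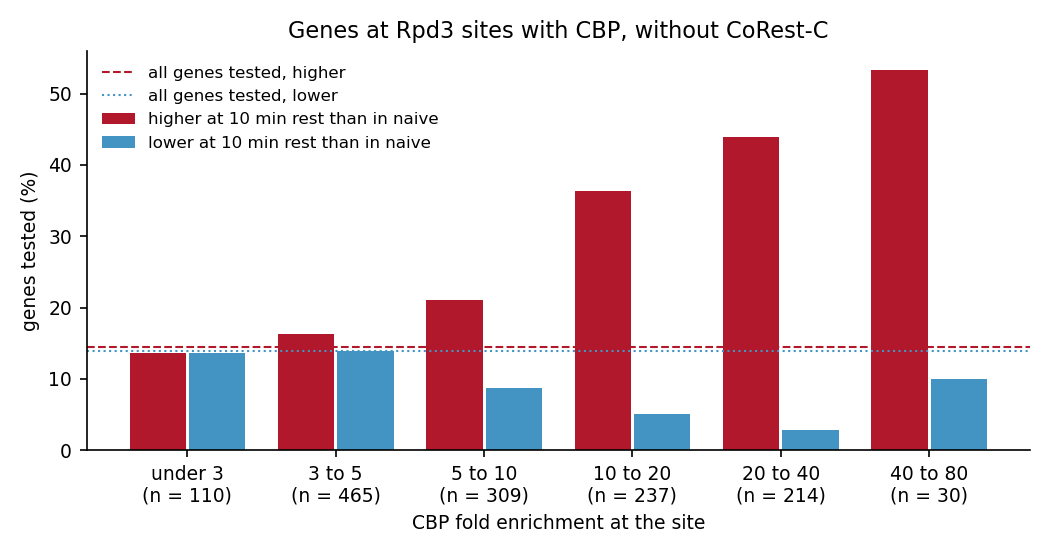
Percentage of tested genes called higher and lower at 10 min rest than in naïve flies (vertical axis) by the CBP fold enrichment of the site at their start (horizontal axis, 6 steps), with lines at the 14.5% and 13.9% of all genes. The share higher is 13.6% in the lowest step and 53.3% in the highest, which holds only 30 genes.

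Gene length and RNA level moved with these shares. Genes at strong CBP sites spanned a median of 8.87 kb and those at weaker ones 3.68 kb, against 2.15 kb at sites with neither and 2.45 kb over all tested genes. Over all genes, 8.58% of those under 3 kb were higher at 10 min rest, 16.8% of those from 3 to 10 kb and 31.0% of longer ones. Within these steps the share at strong CBP sites was 20.2%, 34.3% and 53.9%. At weaker sites it was 8.80%, 19.2% and 36.6%, and at sites with neither 2.51%, 5.08% and 25.6%. By mean log2 CPM (under 4, from 4 to 6, from 6 upwards) the shares were 18.5%, 31.5% and 47.8% at strong CBP sites and 0.94%, 12.99% and 25.1% at weaker ones, against 5.92%, 13.4% and 28.3% over all genes. The share at strong CBP sites was thus above that of all genes in each step of length and of level, whereas that at weaker sites lay within 6 percentage points of it. These steps were chosen after the values were seen.

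The largest fold changes among the genes named here were those of chaperone and heat shock genes, though others among these changed less than *tra* and *LamC*, described below. Of a list of 15, 6 started in these sites, and all 6 were higher at 10 min rest with a median log2 fold change of 1.45, beside 13 of 14 tested in the whole list with a median of 2.74. The largest was *stv*, which encodes the co-chaperone Starvin of the BAG family that acts with Hsp70. Its RNA was 163, 142 and 166 CPM in naïve flies, 247, 231 and 240 at 5 min light, 1864, 1824 and 1936 at 5 min rest, 1966, 2036 and 1913 at 10 min rest and 1620, 1523 and 1365 at 15 min rest. Every library after light lay above the naïve ones, and the log2 fold change at 10 min rest was 3.65 ± 0.09 (SE, n = 3 each, adjusted p = 8.2e-23).

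*Hsc70Cb* encodes an Hsp110 that exchanges the nucleotide of Hsp70. It reached 539, 555 and 555 CPM at 10 min rest, against 157, 132 and 149 in naïve flies, a log2 fold change of 1.91 ± 0.09 (adjusted p = 1.4e-16). *Hop*, which encodes the linker between Hsp70 and Hsp90, reached 232, 236 and 231 CPM, against 63.7, 64.7 and 70.2 in naïve flies (1.82 ± 0.10, adjusted p = 1.9e-14). The CBP enrichment was only 4.20 at the site of *Hop*, whereas it was 25.4 at that of *Hsc70Cb*. *Hsc70-4*, the constitutive cytosolic Hsp70, was higher by 1.07 ± 0.09, *Hsc70-3*, the Hsp70 of the endoplasmic reticulum (BiP), by 0.59 ± 0.09, and *Hsf*, the heat shock factor itself, by 0.32 ± 0.09 (adjusted p = 0.0087). Without 10 min rest replicate 2, *Hsf* was no longer called (0.28, adjusted p = 0.059), nor was it with library size alone (0.20, adjusted p = 0.088). *Hsc70-3* was lower at 5 min light (−0.33 ± 0.09, adjusted p = 0.019) before it rose.

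*Hsp70Ab*, a stress-induced Hsp70, had the largest fold change among the genes ranked. Ranked were called genes with 10 min rest libraries that did not overlap the naïve ones and a mean of at least 1 log2 CPM. *Hsp70Ab* stood at 146, 131 and 134 CPM at 10 min rest, against 2.64, 4.20 and 2.30 in naïve flies (5.48 ± 0.16, adjusted p = 4.3e-21), and was already at 29.8, 35.9 and 31.8 at 5 min light. Reads of its near-identical copies may be split or lost, so that its level is uncertain. Its promoter in the first set of sequences holds GAGA letters, a heat shock element pair and a TATA box.

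Outside the chaperones, *tra* had the largest fold change among the same ranked genes. It encodes Transformer, the splicing regulator of the sex determination pathway, and reached 182, 198 and 207 CPM at 10 min rest, against 51.5, 57.6 and 50.6 in naïve flies (1.88 ± 0.10, adjusted p = 2.9e-14). Exons of *l(3)73Ah* cover 8.58% of its exon bases, and without a stated strand setting reads there cannot be assigned. The same limit holds for other genes described as changed, by exon bases shared with another gene: *mRpL17* (23.6%, *CG34263*), *RpL37A* (19.7%, *CR45305*), *Syx1A* (10.7%, *4EHP*), *tim* (9.89%, *lncRNA:CR46495* and a small nucleolar RNA) and *Nop17l* (6.51%, *mus205*), and likewise *CG11788* (157 of 1429 exon bases, *CG9143*) and *Rpd3* (170 of 2124 exon bases, *CR45438*). *LamC*, which encodes the A-type lamin of the nuclear envelope, reached 161, 149 and 156 CPM, against 67.9, 47.8 and 55.7 in naïve flies (1.44 ± 0.11, adjusted p = 2e-11). *Nop17l* was higher by 1.57 ± 0.10 and *CG13639* by 1.76 ± 0.40 (adjusted p = 0.0016), the last at only 6.06 to 6.60 CPM, against 0.88 to 2.50 CPM in naïve flies. No library of these 4 genes at 10 min rest overlapped the naïve ones, which was a condition of being ranked and is no finding about them.

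**Figure D5:**
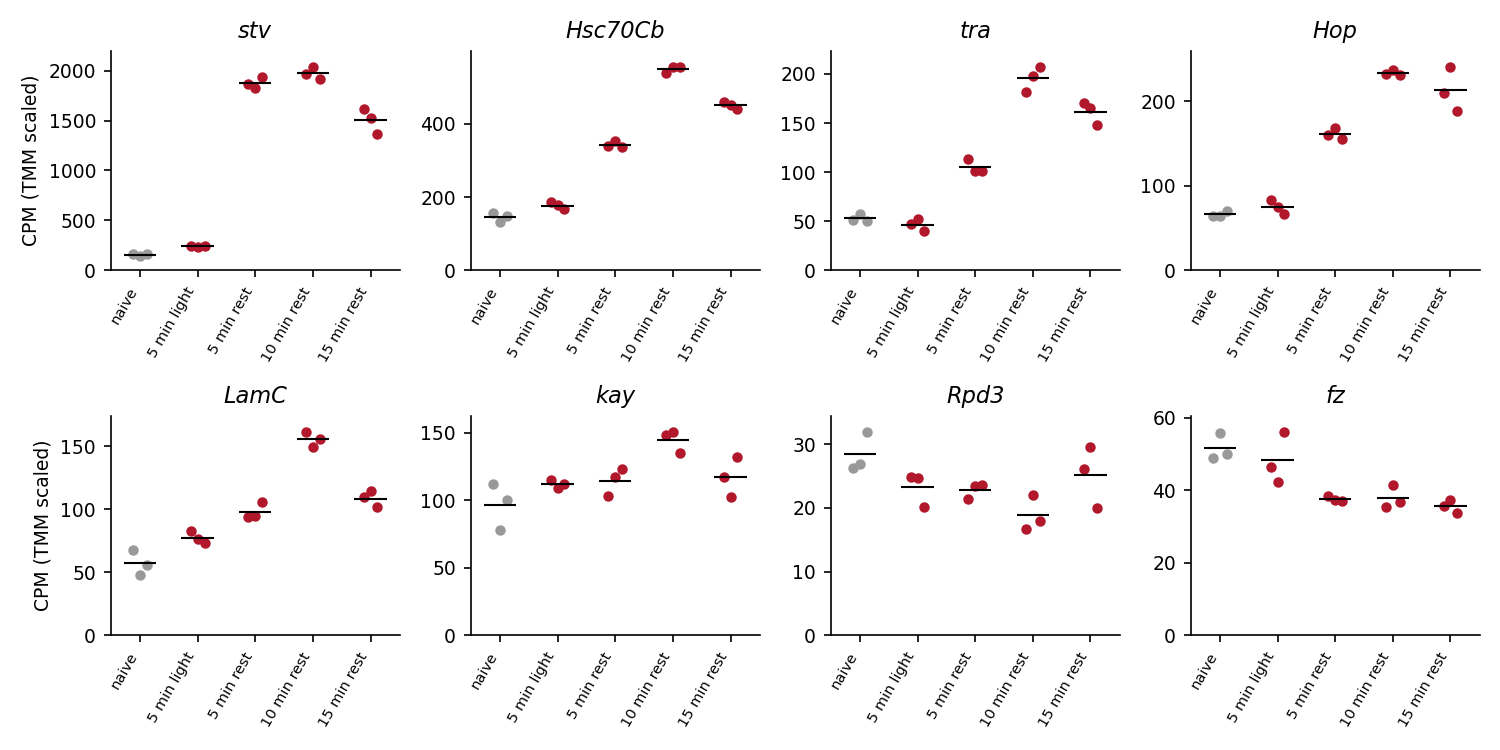
CPM (vertical axis, linear from 0) of 8 genes that start in these sites in each library (points), with the mean of 3 as a bar, for naïve flies, the end of light and 5, 10 and 15 min of rest. *stv*, *Hsc70Cb*, *tra*, *Hop* and *LamC* lie highest at 10 min rest, whereas *Rpd3* at 10 min rest lies at 16.7 to 22.0 CPM, below the naïve 26.3 to 31.9 CPM.

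Genes that fell did so by less. *CG11191* was at 54.6, 55.1 and 56.9 CPM at 10 min rest, against 96.3, 109 and 113 in naïve flies (−0.93 ± 0.10, adjusted p = 6.9e-08), and was lower at all 4 times. *CG9305*, named *Bdp1* in the annotation after a subunit of the RNA polymerase III factor TFIIIB, was at 16.1, 15.4 and 15.2 CPM, against 26.8, 30.1 and 28.5 in naïve flies (−0.87 ± 0.13, adjusted p = 9.7e-06). *CG3862* was lower by −0.86 ± 0.16 (adjusted p = 0.0002) and *CG5569* by −0.91 ± 0.19 (adjusted p = 0.00048). *CG14671* (−1.01 ± 0.21), *CG13365* (−0.82 ± 0.21) and *CG11788* (−1.16 ± 0.27) fell too, but naïve replicate 2 was their highest library by far, with 21.5, 31.6 and 12.0 CPM. Without it *CG13365* was not called (−0.48, adjusted p = 0.076). *EfSec*, which encodes the elongation factor for selenocysteine, stood at 1.79 to 2.93 CPM, against 2.93 to 7.85 CPM in naïve flies (−1.16 ± 0.34, adjusted p = 0.012), and was not called without naïve replicate 2 (−0.74) or 10 min rest replicate 2 (−1.01). All 8 had CBP enrichments under 10, from 2.21 to 9.46.

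At the sites with the highest Rpd3 enrichment, the RNA of the *Rpd3* gene fell. It was 16.7, 22.0 and 17.9 CPM at 10 min rest, against 26.3, 26.9 and 31.9 in naïve flies (−0.59 ± 0.15, adjusted p = 0.0044), and 26.1, 29.5 and 19.9 CPM at 15 min rest, where the test found no difference (adjusted p = 0.55). *CR45438*, which overlaps it, was under 1.5 CPM in every library. *Dp1*, which encodes a KH-domain RNA-binding protein, was higher by 0.47 ± 0.12 (adjusted p = 0.0033), and *CG9281*, *CG5789* and *Hmu* by 0.34, 0.32 and 0.29. These 3 were not called with library size alone (0.22, 0.20 and 0.17), without naïve replicate 2 (0.23, 0.22 and 0.20) or without 10 min rest replicate 2 (0.31, 0.30 and 0.22), nor were *CG9281* and *CG5789* without 10 min rest replicate 1 (0.26 and 0.31). The other genes of the 10 highest sites with a value were not called at 10 min rest, with log2 fold changes from −0.21 (*bigmax*) to 0.16 (*CG4615*) apart from *CR45438* (−1.18 ± 1.01). *snRNA:U1:95Ca* was not tested.

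Genes under the 5 highest CBP peaks all changed at 10 min rest, though not one way. *Ugt86Da* was at 121, 115 and 120 CPM, against 71.6, 55.5 and 88.0 in naïve flies (0.73 ± 0.11, adjusted p = 1.5e-05). *CG42388* was at 154, 157 and 143 CPM, against 113, 137 and 102 (0.37 ± 0.10, adjusted p = 0.0089), *mthl5* was higher by 0.40 ± 0.14 (adjusted p = 0.028) and *Pde8* by 0.28 ± 0.09 (adjusted p = 0.019). The last 3 calls were fragile: *CG42388* lost its call without naïve replicate 3 (0.27), *Pde8* without naïve replicate 2 (0.20) or 10 min rest replicate 2 (0.22), and *mthl5* without naïve replicate 1 or 3 (0.38 each) or 10 min rest replicate 1 or 2 (0.33 each). With library size alone *CG42388* (0.25), *Pde8* (0.16) and *mthl5* (0.28) were not called either. *fz* was lower, with 35.4, 41.5 and 36.9 CPM at 10 min rest, against 49.0, 55.9 and 50.1 in naïve flies (−0.45 ± 0.12, adjusted p = 0.0044), and was lower at 15 min rest too (−0.54 ± 0.12).

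Genes of activity-regulated factors at these sites encoded AP-1. Of 9 activity-regulated factors, *kay* and *Jra*, which encode the Fos and Jun subunits of AP-1, started here, and both were higher at 10 min rest, beside 6 of 9 in the whole list. *kay* had its start at position 29782609 of chromosome 3R in a site with CBP but no CoRest-C (Rpd3 3.22, CBP 25.5), and another start at 29772892 in a site with both partners (Rpd3 4.46, CBP 38.9). Its RNA was at 148, 151 and 135 CPM at 10 min rest, against 112, 77.9 and 100 in naïve flies (0.58 ± 0.11, adjusted p = 0.00028). Counts are per gene and do not tell the starts apart. *Jra* reached 68.1, 68.1 and 64.5 CPM, against 50.7, 54.0 and 55.2 in naïve flies (0.33 ± 0.10, adjusted p = 0.011), but was not called with library size alone (0.21, adjusted p = 0.092). Of 8 genes of AP-1 and its JNK kinase pathway 5 started here, and besides these 2 *msn*, a Ste20 kinase upstream of JNK, was higher (0.52 ± 0.09), whereas *hep* (0.21 ± 0.10) and *Tak1* (−0.20 ± 0.12) were not called. No gene of a list of 8 for cAMP and CREB signalling started in these sites, beside 10.0% of all protein-coding genes. The list is short and did not include *Pde8*, described above.

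Genes of the chromatin machinery were among those at these sites. Genes for 7 of 11 subunits of Rpd3 complexes started here, namely *Rpd3*, *Sin3A*, *Mi-2*, *MTA1-like*, *MBD-like*, *Sap30* and *Sap130*. Of these only *Mi-2*, the ATPase of NuRD, was higher at 10 min rest (0.29 ± 0.10, adjusted p = 0.023) and only *Rpd3* lower, and *Mi-2* was not called without naïve replicate 2 (0.22) or 3 (0.28) or 10 min rest replicate 1 (0.28) or 2 (0.26), nor with library size alone (0.17). The others had log2 fold changes from −0.21 (*MBD-like*) to 0.39 (*Sap30*) and were not called. Of a list of 7 genes for acetyltransferases and their partner subunits, *Tip60* and *Ada2b* started here (−0.03 ± 0.12 and −0.22 ± 0.11, neither called). Of 14 Polycomb and trithorax genes 3 did, and *Pc*, which encodes the reader of H3K27 methylation, was lower (−0.41 ± 0.15, adjusted p = 0.042), whereas *Psc* and *osa* were not called. The call of *Pc* was lost without naïve replicate 1 (−0.41) or 2 (−0.30) or 10 min rest replicate 2 (−0.24).

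Housekeeping groups were counted next, beside the 10.0% of all protein-coding genes that started in these sites. Of 87 cytosolic ribosomal protein genes 16 started here, each with a CBP enrichment under 10, and *RpL36* (−0.40 ± 0.13) and *RpL37A* (−0.42 ± 0.16) were lower at 10 min rest, beside 9 of 84 tested in the whole list. Both were highest by far in naïve replicate 2 (660 and 545 CPM, against 408 to 413 and 280 to 291 in the other naïve libraries), and without that library their log2 fold changes were −0.13 and −0.04 and neither was called. Of 73 mitochondrial ribosomal protein genes 6 started here, and 3 of the 5 tested were lower, *mRpL17* (−0.80 ± 0.18), *mRpL55* (−0.75 ± 0.20) and *mRpS6* (−0.66 ± 0.24), beside 52 of 72 in the whole list. Without naïve replicate 2, *mRpL55* (−0.48) and *mRpS6* (−0.38) were not called. *mRpS6* lost its call without 10 min rest replicate 1 (−0.54) or 2 (−0.61) too. Of 48 proteasome genes 3 started here and none was called. Of 26 general transcription factor genes, taken by symbols with Taf or TfII and as *Tbp* and *Trf2*, none started here. *CG9305* (*Bdp1*), described above, was not on that list.

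Synaptic and clock genes at these sites included *Rop* and *tim*. Of 15 synaptic genes 4 started here, and *Rop*, the Sec1/Munc18 protein that acts on syntaxin, was lower (−0.32 ± 0.08, adjusted p = 0.0035) with 206, 201 and 197 CPM at 10 min rest, against 261, 228 and 267 in naïve flies. *Syx1A*, which encodes syntaxin itself, was lower only at 5 min light (−0.59 ± 0.13, adjusted p = 0.0049). *Csp* and *Liprin-alpha* were not called at any time. Of 11 clock genes 2 started here. *tim*, which encodes the clock protein Timeless, was at 904, 695 and 892 CPM in naïve flies, 516, 472 and 536 at 5 min light, 472, 533 and 506 at 5 min rest, 518, 539 and 503 at 10 min rest and 888, 849 and 818 at 15 min rest. Its libraries of the first 3 times did not overlap the naïve ones (−0.71, −0.72 and −0.68 on the log2 scale), and at 15 min rest the difference was 0.04 ± 0.09. *cwo* was not called (0.24 ± 0.10 at 10 min rest).

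Markers of cell types that started in these sites were *dac* and *trio* of MB neurons, *nrv2* and *Eaat1* of glia and *norpA* of photoreceptors. At 10 min rest only *Eaat1*, the glial glutamate transporter, was called, with 461, 453 and 457 CPM, against 342, 289 and 346 in naïve flies (0.49 ± 0.10, adjusted p = 0.00036). Summed over 8 glial markers, of which 1 was higher and 3 lower, the level at 10 min rest was 2501 to 2593 CPM, against 2048 to 2471 CPM in naïve flies. *norpA*, the phospholipase C of phototransduction, was higher only at 15 min rest (0.32 ± 0.08, adjusted p = 0.0059), as the photoreceptor markers were.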

How the data were processed

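MB nuclei were purified by the authors from pooled heads for ChIP-seq of CBP, Rpd3 and CoRest-C and for nuclear RNA-seq of 15 libraries. Per the study's methods, reads were trimmed with trimmomatic and mapped with STAR to dm6. For ChIP, reads of low mapping quality were dropped, and peaks were called with MACS in Strand NGS above a set p and an enrichment of 3 over a combined input. The CBP list nevertheless reaches down to 2.21, and 84 of the 1159 sites had a CBP enrichment under 3, which is below that setting. They were kept as deposited. Sites found in most of the illuminated replicates were listed. The deposited lists give each site's fold enrichment, a ratio over input, and the authors' −log10 p, without values per replicate. For RNA, the authors deposited raw counts per gene from HTSeq, whose strand setting is not given in the sources used here. Columns with the authors' own comparisons were not used.

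Repeated rows of a list were counted once. Start sites and exons came from the Ensembl annotation of Release 6 and sequence from RefSeq, in which 13943 of 13944 genes compared had equal coordinates. Counts were tested with edgeR 4.0.16 (R 4.3.3) by the quasi-likelihood test in one fit of all 15 libraries, with TMM scaling, filterByExpr and Benjamini-Hochberg adjustment, on tests checked with simulated data. Genes were given a site when a start lay inside it. DESeq2 1.42.0, other scalings, filters, thresholds and sets of libraries, a replicate term and other ways of giving genes to sites were tried. The genes named are those at the 10 highest Rpd3 and 5 highest CBP peaks, among genes called at 10 min rest with libraries that did not overlap and a mean of at least 1 log2 CPM, the 8 that rose most and the 8 that fell most in log2 fold change, *kay*, and list members at these sites. A list member was left in all counts but is not reported here singly. The sites and lists were chosen with earlier results of these data known. Nothing says that replicates came from separate cultures of flies, so that p-values measure the spread between these samples.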

Additional observations from a re-analysis of the deposited data

Results flagged for a closer look

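Libraries of *CG9305* and *CG42388* lay on opposite sides of the naïve ones at 10 and at 15 min rest, though *CG9305* was not called at 15 min rest. *CG9305* was lower at 10 min rest than in naïve flies (−0.87 on the log2 scale), whereas at 15 min rest all 3 of its libraries lay above the naïve ones (0.18, adjusted p = 0.43 by edgeR's quasi-likelihood test). *CG42388*, under the highest CBP peak, was higher at 10 min rest (0.37, adjusted p = 0.0089) and lower at 15 min rest (−0.40, adjusted p = 0.012), with 87.4, 81.2 and 97.9 CPM at 15 min rest, against 113, 137 and 102 CPM in naïve flies. Its call at 10 min rest was lost without naïve replicate 3 (0.27) and with library size alone (0.25). In all, 12 genes at these sites were called higher at 10 and lower at 15 min rest. Both genes are noted because every library of one time lay on one side of the naïve ones and every library of the other time on the opposite side. The difference between the times was not tested.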

How the results depend on the processing

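The number of sites (1159) was 604 when all 3 lists were limited to a fold enrichment of at least 4 and stayed within 1.5 times under the other rules. The share with a start site (93.5%) was 96.1% for midpoints within 1 kb of a start, 79.98% with 1 start per gene, 91.8% where CBP covered at least 50% of the site and 95.9% at a fold enrichment of at least 4. With library size alone, 63 genes were called higher and 41 lower at 5 min light, 100 and 103 at 5 min rest, 227 and 271 at 10 min rest and 73 and 88 at 15 min rest. The shares at 5 min light were 4.62% and 3.00%, against 3.56% and 4.89% of all genes. At 5 min rest they were 7.33% and 7.55%, against 5.97% and 11.1%. The counts at 15 min rest and those that follow are given without such shares and do not compare these genes with all genes. With upper-quartile scaling, 64 were lower at 5 min rest. With only the 6 libraries compared, 41 were higher and 8 lower at 5 min light, 94 and 18 at 5 min rest and 74 and 12 at 15 min rest, and 74 were lower at 10 min rest. With a fold change of at least 1.5 as well, 11 and 7, 37 and 10, 98 and 31, and 33 and 8 were left at the 4 times in order. Leaving out 1 library gave 54 to 95 higher and 12 to 37 lower at 5 min light, 105 to 189 and 20 to 49 at 5 min rest, 262 to 336 and 68 to 124 at 10 min rest, and 92 to 110 and 26 to 44 at 15 min rest. The libraries that moved a count by over 1.5 times were 5 min light replicate 3, 5 min rest replicates 2 and 3, 10 min rest replicates 1 and 2 and naïve replicate 2. The cause was not tested.

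With the replicate number as a block, 348 genes were higher and 116 lower at 10 min rest, and no count of calls moved by over 1.5 times. The numbers do not pair the samples: the correlation of deviations over 30 pairs of equal number ran from −0.10 to 0.05.

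Of 42 named genes called at 10 min rest, none changed sign under any alternative, and 27 were called whichever library was left out. Without naïve replicate 2, 12 of them were not called, with library size alone 9 (*Hsf*, *Jra*, *Hmu*, *CG9281*, *CG5789*, *CG42388*, *Pde8*, *mthl5* and *Mi-2*), with only the 6 libraries 8 and by DESeq2 4, and 18 were under 1.5-fold. With library size alone 15 other named genes were called. Uncalled genes that changed sign were *imd* (−0.035 with library size alone), *CG15601* (−0.086 with library size alone and −0.027 with the upper quartile), *Socs16D* (−0.059) and *osa* (−0.034), both with library size alone. Leaving out 1 library gave −0.028 to 0.24 for *imd*, −0.15 to 0.22 for *CG15601*, −0.044 to 0.15 for *Socs16D*, −0.077 to 0.012 for *Csp*, −0.27 to 0.051 for *dac*, −0.19 to 0.13 for *Syx1A* and −0.11 to 0.016 for *Tip60*. Among ribosomal protein genes the ranges were −0.54 to 0.10 (*RpL29*), −0.10 to 0.011 (*RpL3*), −0.33 to 0.044 (*RpL34b*), −0.14 to 0.010 (*RpL4*), −0.30 to 0.0034 (*RpS16*), −0.26 to 0.016 (*RpS23*) and −0.18 to 0.055 (*sta*).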
